A study of Homo sapiens with 12 samples.

Results

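Amino acid transporters of the plasma membrane were examined as a group of 10 genes, out of 23195 genes in the largest of 4 deposited tables. The members were SLC7A5, SLC3A2, SLC7A11, SLC7A1, SLC1A4, SLC1A5, SLC38A1, SLC38A2, SLC6A9 and SLC43A1, and all 10 were listed in each table. They were chosen by gene symbol, as carriers of amino acids that include known ATF4 targets, and SLC1A4 was chosen from a measured value, the difference between its Nutlin-3a effects under the 2 siRNAs. That difference and the values of SLC1A4 are therefore given as a description, with no test. Where SLC1A4 is counted in a deposited comparison, the count besides it is given too. The members and the other gene lists were also chosen with earlier results of these data known. Leaving out SLC1A4 does not remove that choice, so counts set beside shares of all genes are descriptions.

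The cells were HCT116, an established human colorectal carcinoma line with functional p53. They carried either siControl, a control siRNA, or siRFX7, which targets the mRNA of the transcription factor RFX7, and had 24 h of Nutlin-3a at 10 µM or DMSO, its solvent. Nutlin-3a blocks MDM2, the ubiquitin ligase that holds p53 down, and so raises p53. Each siRNA was combined with each treatment, which makes 4 groups of 3 polyA RNA libraries. Nothing in the labels used here states that the 3 came from separate cultures, so the p-values measure the spread between these libraries, which may be technical. The siRNA sequence and the time from transfection are not given in the sources used here.

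Cells take up amino acids through carriers with overlapping preferences. SLC7A5 (LAT1) and SLC7A11 (xCT) are light chains that reach the cell surface as a disulfide-linked pair with the heavy chain SLC3A2 (CD98, 4F2hc). SLC1A5, SLC38A1 and SLC38A2 bring in glutamine and other small neutral amino acids, and SLC7A5 exchanges such cargo for leucine and other large neutral ones that keep mTORC1 active. When amino acids run short, uncharged tRNA activates the kinase GCN2, translation of ATF4 increases, and ATF4 with C/EBP partners binds elements of the form TGATGNAA near genes of amino acid uptake and synthesis. SLC7A11, the cystine carrier that feeds glutathione synthesis, is known as a gene that p53 lowers.

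Because ATF4 sites are a known feature of these genes, RefSeq promoter windows (GRCh38.p14, 300 bases from 250 before to 50 after a transcript start) were searched on both strands for TGATGNAA. All members but SLC7A11 had an entry, 9 of 10, with 16 windows, since some genes have several starts. The letters occurred in 5 of the 16 windows (31.25%), each of a different gene, against 3.62% of all 35116 windows in the table. Since the members were chosen to include known ATF4 targets, a higher share was built into the choice, and nothing is read from it. The 5 stretches are printed in the direction of the gene with the match in capitals. Positions count the first transcribed base as 0, and TTGCATCA and TTACATCA are matches on the opposite strand.
SLC1A4, chr2:64989375-64989404, plus strand, match from -7 to 0: gcgttcgcggctcccgtTTGCATCAtctcc
SLC7A1, chr13:29595669-29595698, minus strand, match from 7 to 14: ggggccgggcgcactgcTGATGAAAcctgg
SLC3A2, chr11:62881719-62881748, plus strand, match from 37 to 44: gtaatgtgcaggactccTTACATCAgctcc
SLC38A1, chr12:46266508-46266537, minus strand, match from -4 to 3: ttgtcctcagacccgaaTGATGAAAaggga
SLC1A5, chr19:46784899-46784928, minus strand, match from -97 to -90: ctccaggaggaagtggcTGATGCAAgctgt
SLC7A1 had a single window, and the other 4 genes each had a further window at a start farther upstream, without the match. The letters TGACNNNGC, an antioxidant response element bound by NRF2, occurred in 4 of the 16 windows against 13.3% of all windows, in SLC7A5, SLC7A1, SLC3A2 and SLC1A5. The letters GTTGCNA, part of the X-box that RFX factors bind, occurred in 1 of the 16, of SLC3A2, against 9.21% of all windows. There 2 overlapping matches lay on opposite strands, and no match of one motif overlapped a match of another. A match is a description of the letters, not a bound site.

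The deposited tables hold statistics of groups, so no value per library can be shown. Group means were rebuilt from each gene's mean over the 12 libraries and its log2 fold changes, in counts normalized for library size by the authors, and the ranges given span 1 standard error rebuilt from the authors' model. The mean normalized counts summed to 26801484 over all genes, and the depth of single libraries is unknown. Among genes with a mean of at least 100, as all 10 members have, the rebuilt errors differed from the deposited ones by a median of at most 0.223%. The rebuilt errors use a dispersion per gene that was fitted to those same deposited errors, so this closeness was partly built in. In log2 fold changes of the authors' deposited tables, RFX7 itself was at -2.35 with siRFX7 in DMSO cells and at -2.14 in Nutlin-3a cells. Nutlin-3a raised the p53 targets CDKN1A, by 4.46 under siControl and 3.53 under siRFX7, and MDM2, by 3.99 and 3.30, in log2 fold changes of the authors' deposited tables. With siRFX7 in DMSO cells both were also called higher, CDKN1A by 1.29 and MDM2 by 0.49, and in Nutlin-3a cells CDKN1A was at 0.35 and MDM2 at -0.21, called higher and lower (DESeq2, log2 fold changes of the authors' deposited tables). Of 6 epithelial markers 5 had a mean of at least 100 normalized counts, with EPCAM at 7516. Of 9 markers of other cell types 5 were listed, with means of 640 for ACTA2, 441 for COL1A1, 13.5 for VWF and about 2.1 for COL3A1 and GFAP, while PTPRC, CD3E, PECAM1 and ALB had no row. ACTA2, a smooth muscle actin, was higher in the authors' deposited tables by 3.28 and 1.58 with Nutlin-3a under siControl and siRFX7 and by 1.99 and 0.30 with siRFX7 without and with Nutlin-3a, and its part in the transporter results was not tested. COL1A1, a fibroblast collagen, was higher by 0.36 and 0.52 with siRFX7 in those last 2 comparisons of the authors' deposited tables. In bulk RNA, fewer cells with a transcript and less of it per cell cannot be told apart.

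**Figure D1:**
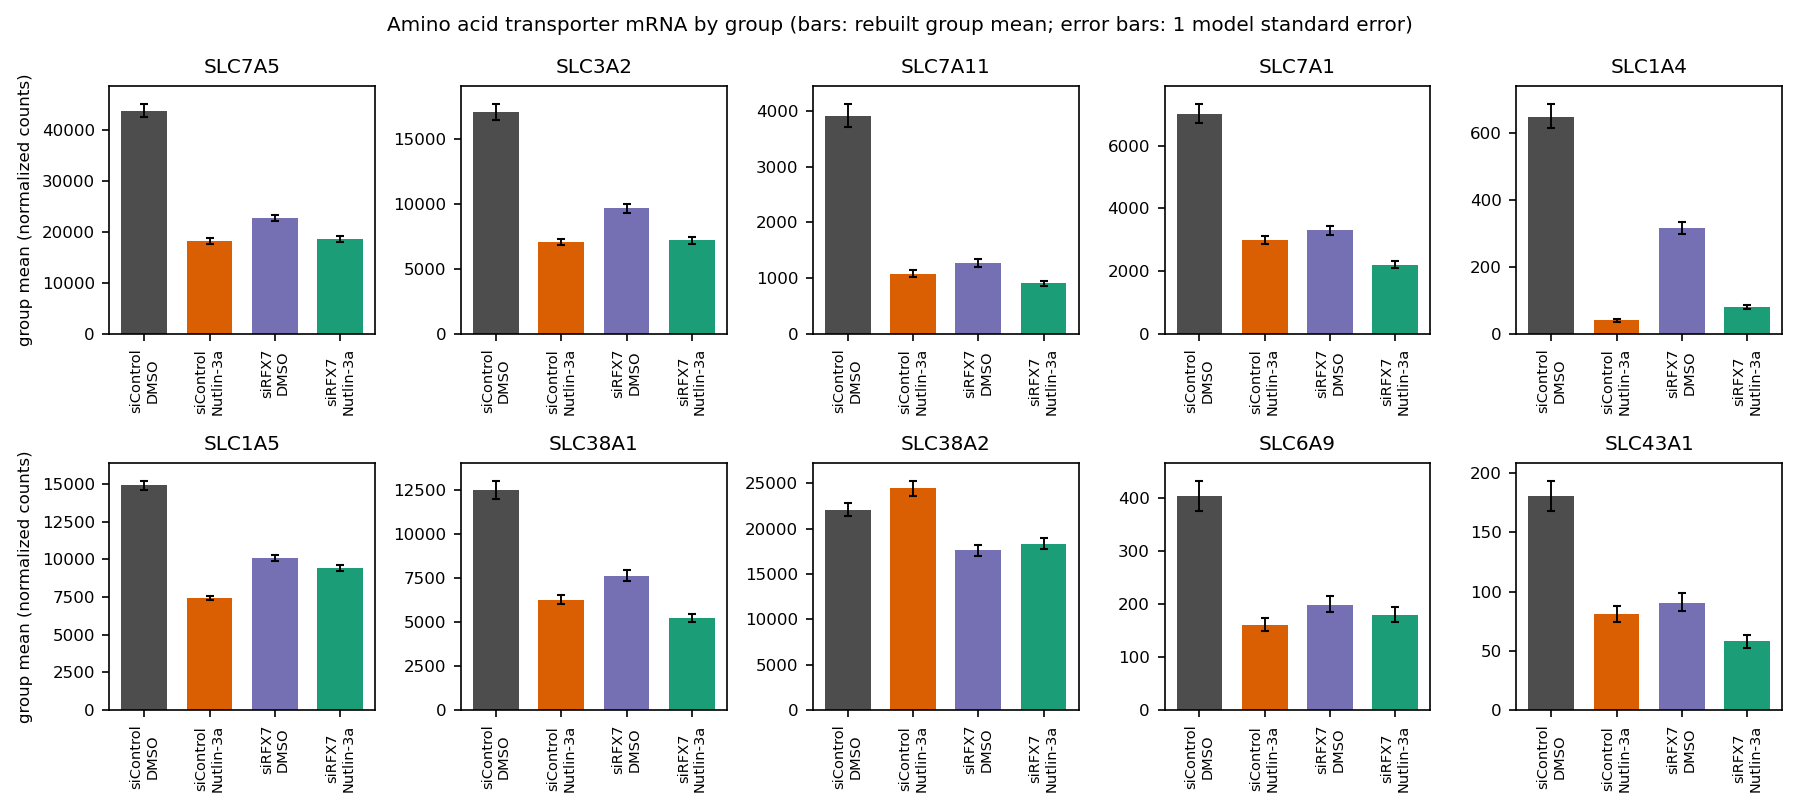
Rebuilt group means in normalized counts (vertical axes from 0, a separate scale for each gene) for the 10 transporters in the 4 groups; error bars span 1 model standard error. In all but SLC38A2 the siControl DMSO bar is the tallest, and SLC1A4 drops from 650 to 40.0 with Nutlin-3a in siControl.

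The first comparison asks how the transporters differed after 24 h of Nutlin-3a under the control siRNA. None of the 4 groups lacked p53, so its part in these changes was not tested. With Nutlin-3a in siControl cells, the mRNAs of the LAT1 and xCT subunits, the cationic carrier, both SLC1 members, the glycine carrier and 2 further neutral carriers fell, while SLC38A2 did not pass the test. The authors' deposited table called 9 of 10 members lower at an adjusted p below 0.05 (DESeq2), or 8 of the 9 besides SLC1A4. Over all 23195 genes 21.2% were called lower, and 32.0% of the 12463 genes with a mean of at least 100. The members' median log2 fold change was -1.25, against 0.02 over all genes.

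The heavy chain and its partners were among the genes that fell. SLC7A5 (ENSG00000103257, chromosome 16 from 87830023 to 87869488, minus strand, GRCh38) had rebuilt means of 43907 normalized counts (42718 to 45130) in siControl DMSO cells and 18217 (17720 to 18728) after Nutlin-3a, and, under siRFX7, 22725 (22107 to 23361) with DMSO and 18618 (18111 to 19140) after Nutlin-3a. Its siControl DMSO level stood above the other groups, and both Nutlin-3a groups were at the bottom with ranges that overlap. The log2 fold change with Nutlin-3a in siControl was -1.27 (standard error 0.06, DESeq2 adjusted p 4.28e-111) in the authors' deposited table. SLC3A2 (ENSG00000168003, chromosome 11 from 62856102 to 62888875, plus strand) had rebuilt means of 17079 normalized counts (16489 to 17690), 7054 (6808 to 7309), 9662 (9326 to 10010) and 7199 (6948 to 7459) in the same order of groups. It followed the same order as its partner, with the Nutlin-3a groups overlapping. Its log2 fold change with Nutlin-3a in siControl was -1.28 (standard error 0.07, DESeq2 adjusted p 1.74e-68) in the authors' deposited table.

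SLC7A11 (ENSG00000151012, chromosome 4 from 138164097 to 138242349, minus strand), the cystine/glutamate exchanger, had rebuilt means of 3917 normalized counts (3720 to 4124) in siControl DMSO cells and 1077 (1020 to 1136) after Nutlin-3a, and, under siRFX7, 1265 (1199 to 1334) with DMSO and 903 (856 to 954) after Nutlin-3a. Either perturbation alone left a low level, 27.5% of siControl DMSO with Nutlin-3a and 32.3% with siRFX7, and these 2 groups were 0.23 apart on the log2 scale (95% interval 0.02 to 0.45). The log2 fold change with Nutlin-3a was -1.86 under siControl (standard error 0.11, DESeq2 adjusted p 5.06e-66) and -0.49 under siRFX7 (standard error 0.11, DESeq2 adjusted p 3.92e-05) in the authors' deposited tables. With both perturbations SLC7A11 was at 23.1% of siControl DMSO.

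Per kilobase of merged exons, the light chain SLC7A5 stayed between 2.57 and 2.82 times its heavy chain SLC3A2. The ratio was 2.81 (2.68 to 2.93 at 1 standard error) in siControl DMSO cells and 2.82 (2.69 to 2.95) after Nutlin-3a, and, under siRFX7, 2.57 (2.45 to 2.68) with DMSO and 2.82 (2.70 to 2.95) after Nutlin-3a. For SLC7A11 the ratio to SLC3A2 per kilobase was 0.123 (0.116 to 0.131) in siControl DMSO cells and 0.0819 (0.0768 to 0.0874) after Nutlin-3a, and, under siRFX7, 0.0703 (0.0659 to 0.0749) with DMSO and 0.0674 (0.0631 to 0.0719) after Nutlin-3a. The cystine light chain was thus lower relative to the shared heavy chain in the 3 perturbed groups than in siControl DMSO, with ranges that do not overlap. These errors treat the genes as independent, and merged exons of all annotated transcripts can exceed the length that is expressed.

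SLC7A1 (ENSG00000139514, chromosome 13 from 29509410 to 29595688, minus strand), the CAT1 carrier of arginine and lysine, had rebuilt means of 7009 normalized counts (6712 to 7319) in siControl DMSO cells and 2990 (2862 to 3125) after Nutlin-3a, and, under siRFX7, 3295 (3154 to 3443) with DMSO and 2206 (2110 to 2306) after Nutlin-3a. As with SLC7A11, the doubly perturbed group was lowest, at 31.5% of siControl DMSO. In the authors' deposited tables Nutlin-3a gave log2 fold changes of -1.23 under siControl (standard error 0.09, DESeq2 adjusted p 5.09e-42) and -0.58 under siRFX7 (standard error 0.09, DESeq2 adjusted p 8.58e-10).

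SLC1A4 (ENSG00000115902, chromosome 2 from 64988477 to 65023865, plus strand), the ASCT1 carrier of alanine, serine and cysteine, had the lowest percentage of its siControl DMSO level of the 10. Its rebuilt means were 650 normalized counts (615 to 687) in siControl DMSO cells and 40.0 (36.0 to 44.4) after Nutlin-3a, and, under siRFX7, 316 (297 to 335) with DMSO and 79.4 (73.1 to 86.2) after Nutlin-3a. No 2 of these ranges overlap, and the lowest group was siControl Nutlin-3a, at 6.15% of siControl DMSO. With Nutlin-3a its log2 fold change was -4.02 under siControl (standard error 0.17) and -1.99 under siRFX7 (standard error 0.15) in the authors' deposited tables. With siRFX7 it was -1.04 with DMSO (standard error 0.12) and 0.99 under Nutlin-3a (standard error 0.19), so that the siRNA went with less SLC1A4 at rest and with more under Nutlin-3a.

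SLC1A5 (ENSG00000105281, chromosome 19 from 46774883 to 46788594, minus strand), the ASCT2 glutamine carrier of the same family, had rebuilt means of 14914 normalized counts (14624 to 15210) in siControl DMSO cells and 7421 (7273 to 7573) after Nutlin-3a, and, under siRFX7, 10068 (9869 to 10270) with DMSO and 9439 (9252 to 9629) after Nutlin-3a. Like SLC1A4 it was lowest in siControl Nutlin-3a and not in the doubly perturbed group. The Nutlin-3a log2 fold change was -1.01 in siControl (standard error 0.04, DESeq2 adjusted p 2.13e-133) in the authors' deposited table. In siRFX7 it was -0.09 (95% interval -0.17 to -0.01, DESeq2 adjusted p 0.053) in the authors' deposited table, so that glutamine carrier mRNA did not pass the test there. It passed when p-values were adjusted over genes with a mean of at least 100, or after scaling to equal total counts, where the value was -0.15. An antisense RNA, AC008622.2, overlaps 23.4% of the SLC1A5 exon bases, at a mean of 16.7 normalized counts. Opposite-strand RNAs also overlap 8.97% of the SLC7A11 and 5.71% of the SLC7A5 exon bases, at means of 1.92 and 2.09. The strand setting of the authors' counting is not given in the sources used here, so the counts over these shared bases are uncertain.

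The sodium-coupled neutral carriers SLC38A1 and SLC38A2, which lie near each other on chromosome 12, differed. SLC38A1 (ENSG00000111371, from 46183063 to 46270017, minus strand), the SNAT1 carrier, had rebuilt means of 12485 normalized counts (11972 to 13021) in siControl DMSO cells and 6271 (6011 to 6542) after Nutlin-3a, and, under siRFX7, 7630 (7314 to 7959) with DMSO and 5226 (5009 to 5452) after Nutlin-3a. Its siControl DMSO level stood above the other 3, and its Nutlin-3a log2 fold change was -0.99 under siControl (standard error 0.09, DESeq2 adjusted p 1.15e-29) and -0.55 under siRFX7 (standard error 0.09, DESeq2 adjusted p 1.70e-09) in the authors' deposited tables. SLC38A2 (ENSG00000134294, from 46358189 to 46372867, minus strand), the SNAT2 carrier, had rebuilt means of 22076 normalized counts (21348 to 22829) in siControl DMSO cells and 24434 (23628 to 25266) after Nutlin-3a, and, under siRFX7, 17601 (17020 to 18202) with DMSO and 18342 (17736 to 18968) after Nutlin-3a. Both siRFX7 groups of SLC38A2 lay below both siControl groups. Its Nutlin-3a log2 fold change was 0.15 under siControl (95% interval 0.01 to 0.28, DESeq2 adjusted p 0.071) and 0.06 under siRFX7 (95% interval -0.07 to 0.19, DESeq2 adjusted p 0.544) in the authors' deposited tables. Adjusted over genes with a mean of at least 100, the value of 0.15 passed the threshold.

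The remaining members were the least abundant besides SLC1A4. SLC6A9 (ENSG00000196517, chromosome 1 from 43991500 to 44031467, minus strand), the GLYT1 glycine carrier, had rebuilt means of 402 normalized counts (375 to 431) in siControl DMSO cells and 161 (149 to 174) after Nutlin-3a, and, under siRFX7, 198 (184 to 214) with DMSO and 179 (166 to 194) after Nutlin-3a. Its level was high in siControl DMSO, and the differences between neighbouring perturbed groups had 95% intervals that include 0. Its Nutlin-3a log2 fold change was -1.32 under siControl (standard error 0.15, DESeq2 adjusted p 2.19e-17) and -0.15 under siRFX7 (95% interval -0.45 to 0.16, DESeq2 adjusted p 0.502) in the authors' deposited tables. The SLC6A9 counts are uncertain, since 7.83% of its exon bases are shared with CCDC24 on the other strand, which had a mean of 308 normalized counts and log2 fold changes of 0.34 and 0.15 with Nutlin-3a, and the strand setting of the authors' counting is not given in the sources used here. SLC43A1 (ENSG00000149150, chromosome 11 from 57484534 to 57515786, minus strand), the LAT3 carrier of large neutral amino acids, had rebuilt means of 180 normalized counts (168 to 193) in siControl DMSO cells and 81.0 (74.4 to 88.1) after Nutlin-3a, and, under siRFX7, 90.6 (83.5 to 98.4) with DMSO and 57.9 (52.7 to 63.6) after Nutlin-3a. As with SLC7A11, SLC7A1 and SLC38A1, the doubly perturbed group was lowest. In the authors' deposited tables its Nutlin-3a log2 fold change was -1.15 under siControl (standard error 0.16, DESeq2 adjusted p 3.36e-12) and -0.65 under siRFX7 (standard error 0.18, DESeq2 adjusted p 0.00111).

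Compared per kilobase of merged exons, SLC7A5 was the most abundant member in each group, at 9253 normalized counts per kilobase in siControl DMSO and 3839 in siControl Nutlin-3a. In siControl DMSO it was followed by SLC1A5 at 4476, SLC38A2 at 3344 and SLC3A2 at 3298, of which the last 2 are within their errors. With Nutlin-3a in siControl SLC38A2 moved up to 3701 per kilobase, ahead of SLC1A5 at 2227 and within its error of SLC7A5. SLC1A4 went from 93.7 per kilobase, the eighth, to 5.76, the lowest of the 10. The ratio of SLC1A5 to SLC1A4 per kilobase was 47.8 in siControl DMSO cells and 387 after Nutlin-3a, and, under siRFX7, 66.4 and 248.

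**Figure D2:**
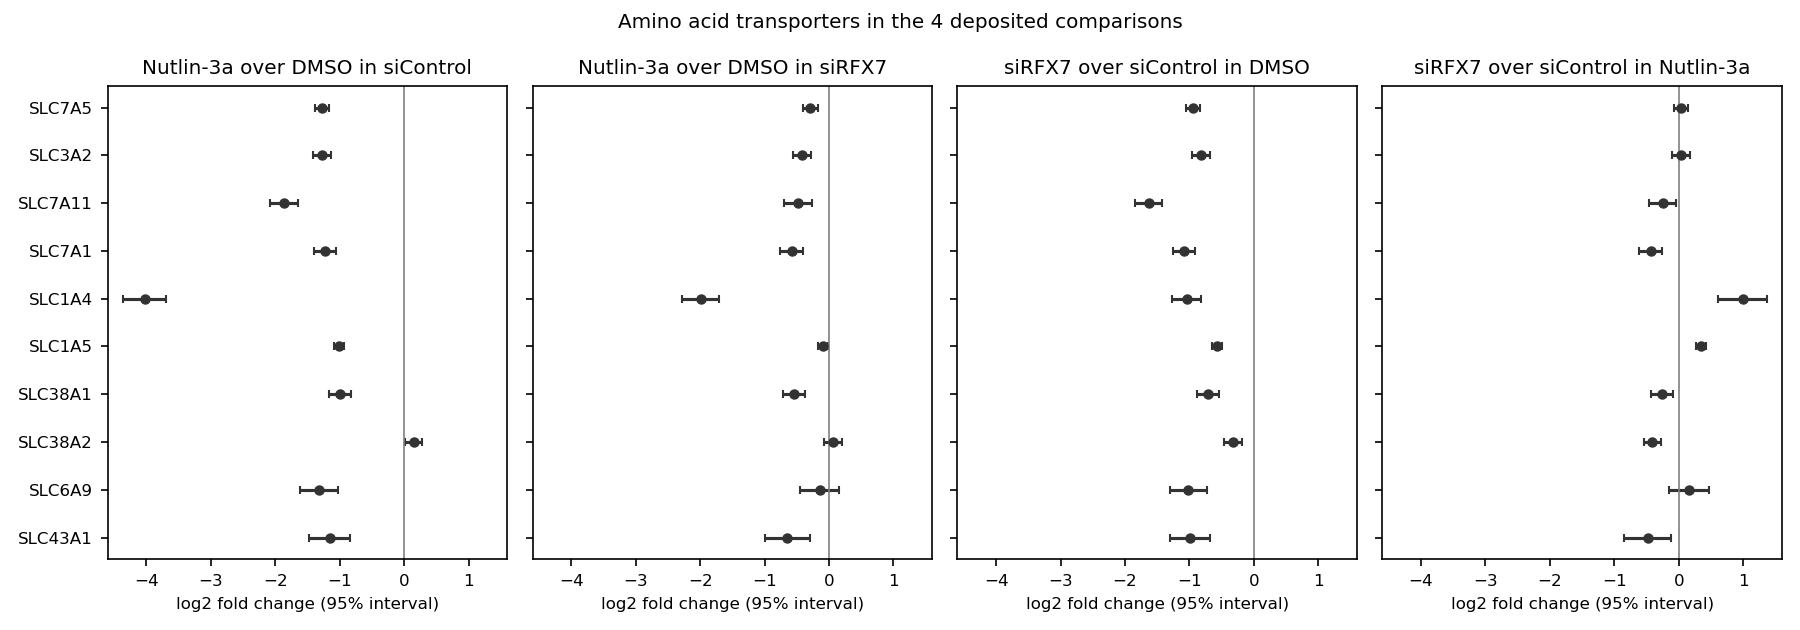
Log2 fold changes with 95% intervals of the 10 transporters in the 4 deposited comparisons, 1 panel each, with a line at 0. Besides SLC1A4, all 9 intervals lie below 0 with siRFX7 in DMSO, and in Nutlin-3a that of SLC1A5 (0.35) lies above it. SLC1A4, at -1.04 and 0.99 in these 2 panels, was chosen from a measured value and is shown as a description.

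The second question is what the RFX7 knockdown did at rest. In DMSO all 10 members were lower with siRFX7, with log2 fold changes from -0.33 for SLC38A2 to -1.63 for SLC7A11 in the authors' deposited table. There 10 of 10 members were called lower (DESeq2), or 9 of 9 besides SLC1A4, where 15.5% of 20026 genes were called lower, and 23.4% of genes with a mean of at least 100. The median of the members was -0.97, against -0.003 over all genes. The p53 targets CDKN1A and MDM2 were higher in this same comparison, by 1.29 and 0.49 in the authors' deposited table, and their part in the transporter values was not tested. This comparison uses the siControl DMSO libraries as its reference, as does the Nutlin-3a comparison in siControl, so the values of the 2 do not count as independent.

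Singly, SLC7A11 stood at -1.63 (standard error 0.11, DESeq2 adjusted p 3.70e-50) and SLC7A1 at -1.09 (standard error 0.09, DESeq2 adjusted p 2.62e-32) with siRFX7 in DMSO in the authors' deposited table. The LAT1 pair stood at -0.95 for SLC7A5 (standard error 0.06, DESeq2 adjusted p 1.73e-61) and -0.82 for SLC3A2 (standard error 0.07, DESeq2 adjusted p 4.14e-28) in the authors' deposited table. The least abundant carriers SLC6A9 and SLC43A1 fell by 1.02 and 0.99 in log2 units in the authors' deposited table. Among the glutamine carriers SLC38A1 fell by 0.71, SLC1A5 by 0.57 and SLC38A2 by 0.33 in log2 units (DESeq2 adjusted p 6.42e-15, 1.94e-42 and 1.93e-05) in the authors' deposited table. The siRNA thus left 32.3% of SLC7A11 and 79.7% of SLC38A2, the ends of the range.

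Under Nutlin-3a the members no longer moved one way with siRFX7. Of the 10, 4 were called lower in the authors' deposited table (DESeq2), against 13.6% of 19393 genes and 19.3% of genes with a mean of at least 100, and 2 of 10 were called higher, against 15.0% and 19.8%. Besides SLC1A4 the counts were 4 and 1 of 9, and the median over the 10 was -0.11, against 0.002 over all genes. The higher call besides SLC1A4 was SLC1A5, at 0.35 (standard error 0.04, DESeq2 adjusted p 1.40e-15) in the authors' deposited table.

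The 4 members that fell with siRFX7 under Nutlin-3a were SLC7A1, SLC38A2, SLC38A1 and SLC43A1. Their log2 fold changes were -0.44 (DESeq2 adjusted p 1.24e-05), -0.41 (2.82e-08), -0.26 (0.0113) and -0.48 (0.0324) in the authors' deposited table. At a threshold of 0.01, SLC38A1 and SLC43A1 did not pass. Both chains of LAT1 had intervals around 0, from -0.08 to 0.14 for SLC7A5 and from -0.11 to 0.17 for SLC3A2. SLC7A11 was at -0.25 (DESeq2 adjusted p 0.0695) and SLC6A9 at 0.16 (95% interval -0.15 to 0.47, DESeq2 adjusted p 0.519) in the authors' deposited table, and neither passed the test.

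With the RFX7 knockdown in place, Nutlin-3a itself lowered 7 of 10 members in the authors' deposited table (DESeq2), or 6 of the 9 besides SLC1A4, against 19.7% of all 23195 genes and 28.7% of those with a mean of at least 100. The members that did not pass were SLC1A5, SLC6A9 and SLC38A2. The median was -0.46, against -0.02 over all genes, and SLC7A5 at -0.29 (standard error 0.06, DESeq2 adjusted p 1.67e-06) and SLC3A2 at -0.42 (standard error 0.07, DESeq2 adjusted p 2.57e-08) in the authors' deposited table were the smaller of the called changes. This comparison shares no library with the one in siControl.

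**Figure D3:**
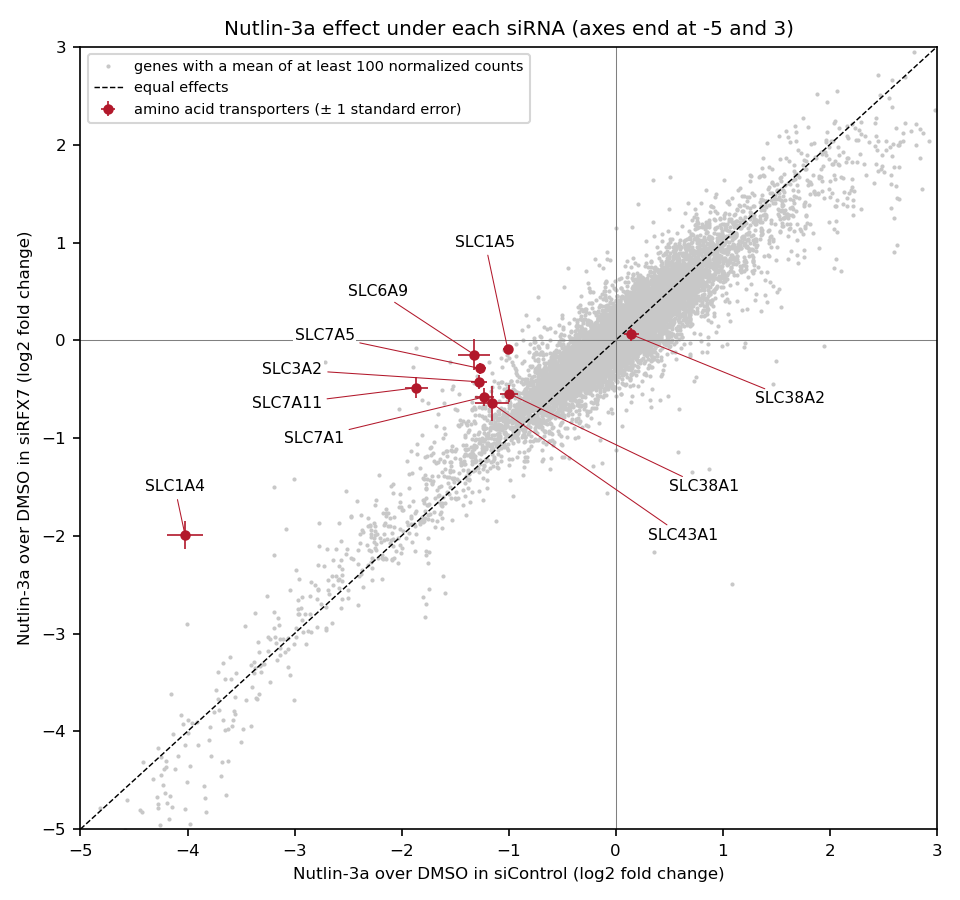
Log2 fold change with Nutlin-3a in siControl (horizontal) and in siRFX7 (vertical); grey points are genes with a mean of at least 100 normalized counts inside the axis limits, red points the 10 transporters with 1 standard error, and the dashed line marks equal effects. Of the 10, 9 lie above the line, with SLC1A4 farthest from it, and SLC38A2 lies just below.

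The difference between the Nutlin-3a effects, siRFX7 minus siControl, was the measure that put SLC1A4 among the members, so it is described without a test. It was 2.03 for SLC1A4 (standard error 0.22), which ranked 2 from the top among 12463 genes with a mean of at least 100. Next came SLC7A11 at 1.38 (0.15), SLC6A9 at 1.18 (0.22), SLC7A5 at 0.98 (0.08), SLC1A5 at 0.91 (0.06) and SLC3A2 at 0.85 (0.10), with ranks from 8 to 55. SLC7A1 at 0.65 (0.13), SLC43A1 at 0.51 (0.24) and SLC38A1 at 0.45 (0.12) were smaller, and SLC38A2 was at -0.09 (0.10). A z test over all genes called 3.28% above 0 and 2.92% below 0, and 5.92% above 0 among genes with a mean of at least 100. Of the members 8 of 10 were above 0 by that rule, from which nothing is read, since the choice of members used this difference and since it contains the siControl responses already given.

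The members were next set beside ATF4 and 19 other genes that it is known to drive, of which 19 of the 20 were listed. ATF4 mRNA fell with Nutlin-3a by 1.47 under siControl (standard error 0.08, DESeq2 adjusted p 1.77e-81) and by 0.55 under siRFX7 (standard error 0.08, DESeq2 adjusted p 5.70e-12) in log2 units in the authors' deposited tables. With siRFX7 it fell by 1.04 with DMSO (standard error 0.08, DESeq2 adjusted p 1.69e-40) and was at -0.12 under Nutlin-3a (standard error 0.08, DESeq2 adjusted p 0.254) in the authors' deposited tables. ATF4 is controlled largely in translation, and its protein was not measured here.

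Over the ATF4 list, Nutlin-3a in siControl lowered 13 and raised 5 of 19 in the authors' deposited table, against 21.2% and 22.0% of all genes, with a median of -1.15. In siRFX7 it lowered 10 and raised 6, against 19.7% and 21.7% of all genes, with a median of -0.22. The siRNA lowered 17 of 19 and raised none in DMSO, against 15.5% and 13.5% of all genes, with a median of -1.16 in the authors' deposited table. In Nutlin-3a it lowered 10 and raised 2, against 13.6% and 15.0% of all genes, with a median of -0.21 in the authors' deposited table. Of the 19 listed genes 17 had a mean of at least 100. The share raised with Nutlin-3a at that depth is not given, so the raised counts are set only beside all genes. Of all genes at that depth, Nutlin-3a lowered 32.0% in siControl and 28.7% in siRFX7. With siRFX7, 23.4% of them were lower in DMSO and 19.3% in Nutlin-3a. The gene of the list with the largest difference between Nutlin-3a effects was CHAC1, a glutathione-degrading enzyme, at 2.49 (standard error 0.18). The 5 genes raised with Nutlin-3a under siControl were NUPR1, ATF3, SESN2, DDIT4 and ALDH18A1. Their log2 fold changes were 2.28, 1.05, 0.94, 0.27 and 0.24 in the authors' deposited table, with NUPR1 at a mean of 45.6 normalized counts. At least SESN2 and ATF3 are also known p53 targets, and the part of p53 in these values was not tested. These genes were named after their values were seen.

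A list of plasma membrane amino acid transporters outside the 10 was counted in the same way. Of 29 such genes 18 were listed for the Nutlin-3a comparisons and 11 had a mean of at least 100. Nutlin-3a raised 5 and lowered 3 of the 18 under each siRNA, with medians of -0.01 under siControl and 0.14 under siRFX7, in the authors' deposited tables. Over all genes 22.0% were raised and 21.2% lowered under siControl, and 21.7% and 19.7% under siRFX7, so these counts were near the background. With siRFX7, 14 were listed, of which 5 rose and 4 fell in DMSO, against 13.5% and 15.5% of all genes, and 5 rose and 3 fell with Nutlin-3a, against 15.0% and 13.6%, per the authors' deposited tables.

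Among close relatives of the members, SLC7A2, SLC7A8 and SLC7A6 were chosen after their values were seen. SLC43A2 (LAT4) is the relative of SLC43A1. Among genes of this list with a mean of at least 100, it had the largest absolute difference between Nutlin-3a effects, at -1.03. It rose with Nutlin-3a by 1.42 under siControl and 0.39 under siRFX7, per the authors' deposited tables. With siRFX7 it was lower, at -0.63 with DMSO and -1.67 with Nutlin-3a, per the authors' deposited tables. The cationic carrier SLC7A2 (CAT2), the relative of SLC7A1, was higher with siRFX7 by 0.84 with DMSO and 0.78 with Nutlin-3a, per the authors' deposited tables. SLC7A8 (LAT2), another light chain of SLC3A2, was higher with siRFX7 by 0.78 and 0.64 in the same comparisons of the authors' deposited tables. SLC7A6 (y+LAT2), also a partner of SLC3A2, rose with Nutlin-3a by 0.62 under siControl and 0.73 under siRFX7 in the authors' deposited tables. With Nutlin-3a under siControl, SLC7A2 fell by 0.58 on the log2 scale and SLC7A8 at 0.27 did not pass the DESeq2 test in the authors' deposited table.

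**Figure D4:**
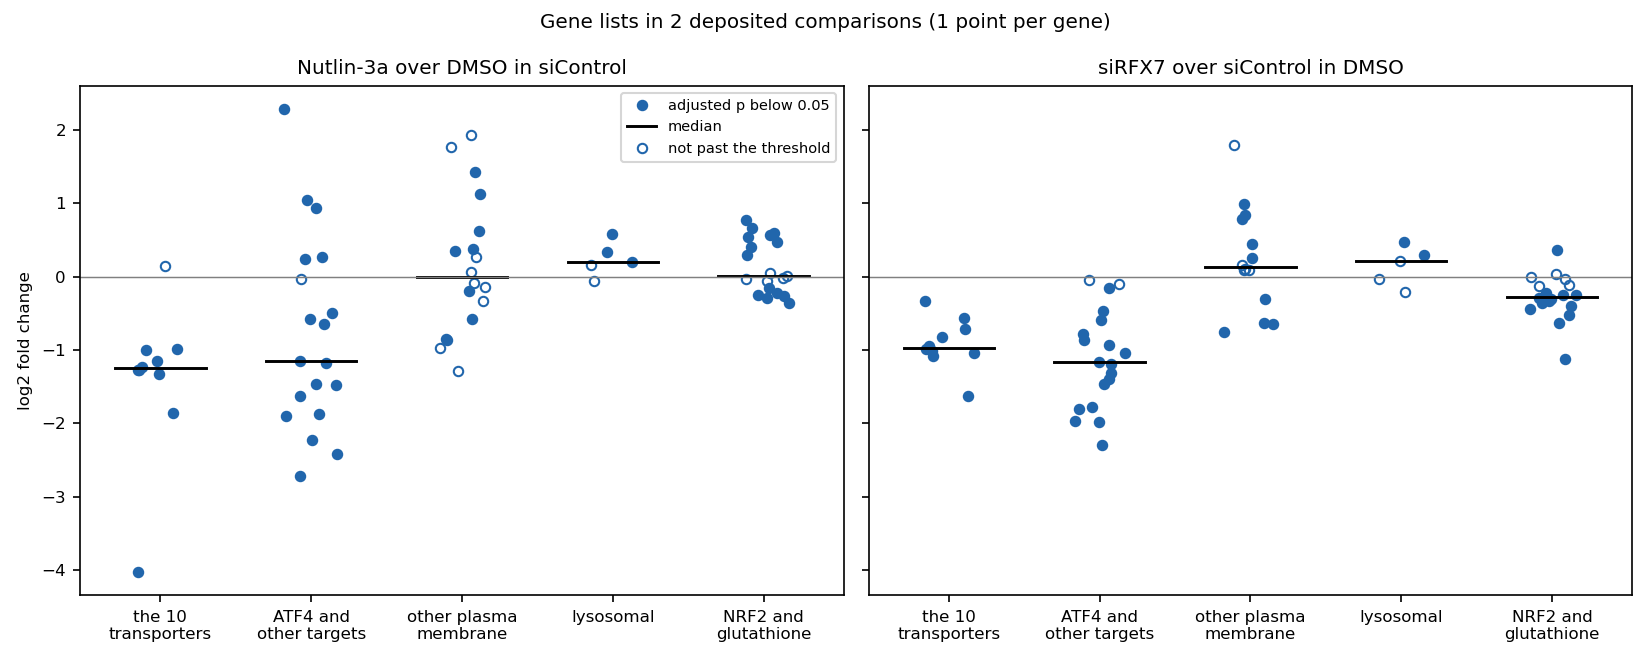
Log2 fold change (vertical axis, 1 point per listed gene) with Nutlin-3a in siControl (left) and with siRFX7 in DMSO (right) for the 10 transporters and 4 other gene lists; filled points passed an adjusted p of 0.05 in the authors' table, and bars are medians. The transporters (medians -1.25 and -0.97) and the ATF4 list (-1.15 and -1.16) lie low, and the other plasma membrane carriers (-0.01 and 0.13) are spread around 0. Both comparisons use the siControl DMSO libraries.

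Genes most like a member were taken as those with the smallest Euclidean distance over the 4 log2 fold changes, among 10862 other protein-coding genes with a mean of at least 100. For SLC7A11 they were TRIB3 at a distance of 0.29, ULBP1 at 0.34, PSAT1 at 0.34 and JDP2 at 0.60, all in log2 units. TRIB3, a pseudokinase, and PSAT1, an enzyme of serine synthesis, belong to the ATF4 list used above. TRIB3 had log2 fold changes of -1.90 and -0.27 with Nutlin-3a in siControl and siRFX7 and of -1.81 and -0.18 with siRFX7 with DMSO and with Nutlin-3a in the authors' deposited tables. For SLC1A4 the closest were KIF20A at 1.19, PBX3 at 1.22, SUV39H1 at 1.39 and FAM129A at 1.41. All were farther away than the genes named for SLC7A11, so no compared gene had a pattern as close to SLC1A4. KIF20A, a mitotic kinesin, had log2 fold changes of -4.00 and -2.90 with Nutlin-3a in siControl and siRFX7 and of -0.29 and 0.81 with siRFX7 with DMSO and with Nutlin-3a, per the authors' deposited tables. The comparisons share libraries in pairs, so these distances describe likeness and are not tested.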

How the data were processed

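PolyA RNA of 12 HCT116 libraries was sequenced. The submitters' processing notes name hg38, Trimmomatic 0.39, cutadapt 2.10, featureCounts 1.6.5 and DESeq2 1.20.0; the aligner, annotation and strand setting are not given in the sources used here. The data used are 4 tables in which the authors compared 2 groups each. Per the file headers, they hold a signal (mean counts divided by size factors), log2 fold changes with standard errors, a score (the test statistic, equal to the log2 fold change over its error) and p-values, raw and adjusted. The deposited adjusted p-values are Benjamini-Hochberg values over each table's genes. Fold changes of the 4 tables closed to 1.27e-14 when read as siRFX7 over siControl, against a median of 0.374 the other way. Genes were called at an adjusted p below 0.05.

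Computed here (Python 3.11.15, pandas 2.3.3, scipy 1.17.1) were group means, their errors (3 libraries per group of equal size factor, negative binomial variance) and the difference of Nutlin-3a effects, with a z test adjusted over 23195 genes; the code was tested on simulated data. Exon lengths and positions came from GENCODE 29 (GRCh38), where 23164 of the 23195 gene IDs were found. The members and lists were chosen with earlier results of these data known. Named genes were the 10 members, RFX7, CDKN1A and MDM2 as checks, ATF4, and the 4 genes nearest to SLC7A11 and to SLC1A4. From each other list, the gene with the largest absolute difference between Nutlin-3a effects was named, among those with a mean of at least 100. Other genes are marked where named. Alternatives were a threshold of 0.01, a minimum absolute log2 fold change of 0.58, scaling to equal totals or a median of 0, and adjustment over genes with a mean of at least 100.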

Additional observations from a re-analysis of the deposited data

Results flagged for a closer look

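The z test across all genes, which called 3.28% of 23195 genes above 0, also called 8 of the 10 transporters. It is no test of the members, since SLC1A4, 1 of the 8, was chosen from this difference, and the values are a description. The differences, siRFX7 minus siControl on the log2 scale, were 2.03 for SLC1A4, 1.38 for SLC7A11, 1.18 for SLC6A9, 0.98 for SLC7A5, 0.91 for SLC1A5, 0.85 for SLC3A2, 0.65 for SLC7A1 and 0.45 for SLC38A1. All 8 had a less negative Nutlin-3a effect with siRFX7. Nothing is read from the count. No value per library was used, so whether 1 library moves these differences was not tested.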

How the results depend on the processing

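Of the 5 alternatives, 3 change only which values are called and leave each fold change as it is, so they say nothing about direction. With a minimum absolute log2 fold change of 0.58, the members called lower with Nutlin-3a in siRFX7 numbered 2 in place of 7; with siRFX7 under Nutlin-3a they numbered 0 in place of 4, and those called higher 1 in place of 2. That alternative by its construction leaves out smaller changes; at an unadjusted DESeq2 p below 0.05 in the authors' deposited table, 5 were lower. At an adjusted p below 0.01, the members lower with siRFX7 under Nutlin-3a numbered 2. Adjusted over genes with a mean of at least 100, 1 member, SLC38A2, was higher with Nutlin-3a in siControl. Shares of all genes called under these other rules are not given. The counts therefore show only how the calls of the members moved with the rule. Scaling to equal totals moved fold changes by -0.05 to 0.06 and setting the median of all genes to 0 by -0.02 to 0.02 on the log2 scale; both shift all genes alike, and both kept each count of members called within 1.5 times. No paired analysis was possible because the tables hold no values per library; leaving out replicates, other size factors and other filters were not run for the same reason.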

Other observations

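Transporters of the lysosome export amino acids from its lumen. Of 7 in the list 5 had values, with median log2 fold changes of 0.20 with Nutlin-3a in siControl and 0.22 with siRFX7 in DMSO in the authors' deposited tables. In these comparisons 3 and 2 of the 5 were called higher, against 22.0% and 13.5% of all genes, and with 5 genes the counts are given as values only. SLC36A1 (PAT1), the gene of that list with the largest difference between Nutlin-3a effects, was higher in all 4 comparisons of the authors' deposited tables, by 0.33 and 0.70 with Nutlin-3a in siControl and siRFX7 and by 0.48 and 0.84 with siRFX7 in DMSO and Nutlin-3a.

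NRF2 and genes of glutathione synthesis and NADPH supply, which share SLC7A11 as a known target, were also counted. Nutlin-3a in siControl raised 8 and lowered 6 of 19 listed genes, against 22.0% and 21.2% of all genes, with a median of 0.01 in the authors' deposited table. In siRFX7 it raised 10 and lowered 3, against 21.7% and 19.7%, with a median of 0.17 in the authors' deposited table. With siRFX7 in DMSO 13 of the 19 fell and 1 rose, against 15.5% and 13.5% of all genes, with a median of -0.28 in the authors' deposited table. In Nutlin-3a 9 fell and 3 rose, against 13.6% and 15.0%, with a median of -0.15 in the authors' deposited table. All 19 listed genes had a mean of at least 100. The share raised with Nutlin-3a at that depth is not given, so the raised counts are set only beside all genes, low counts included. Of all genes at that depth, Nutlin-3a lowered 32.0% in siControl, so the 6 of 19 were near the background, and 28.7% in siRFX7. With siRFX7, 23.4% of them were lower in DMSO and 19.3% in Nutlin-3a. ABCC2, an export pump for conjugates, had the largest difference between Nutlin-3a effects of that list, at -0.57 (standard error 0.11).

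Rebuilt from the authors' standard errors, the model's coefficient of variation ran from 3.40% for SLC1A5 in siControl DMSO to 18.1% for SLC1A4 in siControl Nutlin-3a. It uses a single dispersion per gene for all groups, so within a gene it differs between groups only through the mean count. The spread between the libraries of a group was not measured. The copy SLC7A5P1, which resembles part of SLC7A5, had a mean of 16.6 normalized counts against 25867 for SLC7A5.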
